A study of Mus musculus with 11 samples.

Results

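The genes examined here encode the enzymes that make cholesterol and fatty acids, together with the regulators of their transcription. The set holds 31 genes, chosen by name and matched to the Ensembl identifiers of the count files, out of 38561 genes counted. All 31 matched and all 31 were among the 17317 genes with enough counts to be tested, with 156 to 22236 counts in any library. They were followed in RNA from facial process explants (the nasal processes and the maxillary and mandibular parts of the first arch) dissected from mouse embryos of a mixed strain at embryonic day 10.5 (E10.5). Embryos were wild type (wt, 2 libraries), homozygous for a *Rspo2* mutation (Rspo2KO, 3 libraries), homozygous for a *Wnt9b* mutation (Wnt9bKO, 3 libraries), or homozygous for mutations of both genes (DKO, 3 libraries). WNT9b is a secreted WNT ligand and RSPO2 a secreted protein that strengthens WNT signaling at the receptor, and the labels call the embryos homozygous mutant without naming the alleles. The study kept more than 1 null allele of *Rspo2*, and which of them the RNA came from is not given in the sources used here. Each comparison asks whether loss of either signal, or of both, went with other levels of these genes.

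Cholesterol is built from acetyl-CoA in stages. The mevalonate pathway makes isoprenoid units, squalene is formed from them and closed into lanosterol, and a series of enzymes then trims lanosterol to cholesterol. Fatty acids are built from the same acetyl-CoA, and are then lengthened and desaturated. When sterols are scarce, SCAP escorts the membrane-bound SREBP factors to the Golgi, where they are cleaved and freed to activate these genes, and INSIG proteins hold SCAP back when sterols are plentiful. In the embryo, cholesterol is also attached to Hedgehog ligands, and loss of *DHCR7*, the last enzyme of the route, causes Smith-Lemli-Opitz syndrome in humans, which affects the face.

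Total counts per library ranged from 11136166 to 18017344. *Rspo2* had 14.8 and 16.0 CPM (counts scaled to library size, with TMM factors) in wt against 4.74 to 6.59 CPM in Rspo2KO, but 2.86 CPM in the library labelled Wnt9bKO 2 and 15.5 CPM in the library labelled DKO 3, so these libraries went against their labels. *Wnt9b* counts were not lower but higher in Wnt9bKO (16.2 to 23.3 CPM) and DKO (18.3 to 20.2 CPM) than in wt (10.8 and 13.4 CPM). By edgeR's quasi-likelihood test the log2 fold change of *Wnt9b* was 0.61 in Wnt9bKO (adjusted p = 0.0187) and 0.68 in DKO (adjusted p = 0.0138). Gene counts do not show which exons were read. Libraries were kept under their labels, and the main counts are also given without the library labelled Wnt9bKO 2 and the library labelled DKO 3. *Xist* was at 680 CPM or more in every wt and DKO library and at 1.94 CPM or less in every Rspo2KO and Wnt9bKO library, so that the sexes were not balanced. The library wt 1 held heart markers at 25.3 CPM in sum, against 0.705 to 2.66 CPM in the other libraries. Markers of facial mesenchyme (*Prrx1*, 212 to 392 CPM) and of surface epithelium (*Epcam*, 30.2 to 44.0 CPM) were present in every library.

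Some features of the libraries moved with the *Wnt9b* label, and sums of some cell type markers also differed between wt and Rspo2KO. Small nuclear RNA genes summed to between 351.8 and 419.6 CPM in the libraries labelled wt or Rspo2KO, but to only 70.1 to 82.7 CPM in those labelled Wnt9bKO or DKO, and this difference and the *Wnt9b* label cannot be told apart. The 5 erythroid markers ranged in sum from 3876 to 5658 CPM for wt with Rspo2KO, and from 1667 to 2740 CPM for Wnt9bKO with DKO, and 3 of 5 were lower in Wnt9bKO and 5 of 5 in DKO. The 5 forebrain and eye markers summed to 50.02 to 55.6 CPM in wt and 60.6 to 77.4 CPM in Rspo2KO, where 0 of 5 passed. They stood at 71.0 to 144.7 CPM in Wnt9bKO and 76.5 to 95.9 CPM in DKO, with 4 of 5 higher under each label. The 4 endothelial markers summed to 117.4 to 123.4 CPM in wt and 135.8 to 163.8 CPM in Rspo2KO, where 0 of 4 passed. They stood at 161.0 to 167.6 CPM in Wnt9bKO and 149.7 to 167.2 CPM in DKO, with 2 of 4 higher under each label. The 5 neuronal markers summed to 439.1 to 485.3 CPM in wt and 537.4 to 590.0 CPM in Rspo2KO, where 0 of 5 passed. They stood at 263.2 to 383.9 CPM in Wnt9bKO, where 1 of 5 was lower (*Tubb3*). In DKO they were at 461.8 to 504.8 CPM, and 2 of 5 were higher (*Stmn2*, *Neurod1*). The 7 facial mesenchyme markers summed to 987 to 1070 CPM in wt, 727 to 808 CPM in Rspo2KO, 715 to 1296 CPM in Wnt9bKO and 857 to 958 CPM in DKO. Of these, 2 were higher in Wnt9bKO, 1 in DKO and 0 in Rspo2KO, and 0 were lower. Sums of the 6 surface epithelium markers overlapped, with 216.6 to 234.7 CPM in wt, 199.8 to 243.9 CPM in Rspo2KO, 201.7 to 227.8 CPM in Wnt9bKO and 199.0 to 239.6 CPM in DKO. Under each of the labels Wnt9bKO and DKO, 1 of these 6 was lower and 0 were higher, and in Rspo2KO 0 passed. The part of all these features in the results that follow was not tested. In bulk tissue, fewer cells of a type and less RNA per cell cannot be told apart.

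In wt explants all 31 genes were above the median of the genes tested. Compared per length (mean CPM per kb of annotated exon), *Scd2*, a desaturase that makes monounsaturated fatty acids, had the highest level with 149 CPM per kb. *Acly*, which supplies cytosolic acetyl-CoA, followed with 102, and *Hmgcs1*, which makes the HMG-CoA that enters the mevalonate pathway, with 79.3 CPM per kb. *Insig2* had the lowest level of the 31, 4.03 CPM per kb, which was still at percentile 52.4 of the tested genes. Between these ends, enzymes of the same route were expressed at very different levels. *Cyp51*, the lanosterol demethylase, stood at 59.2 CPM per kb, while *Tm7sf2*, which acts right after it, stood at 4.95 CPM per kb. Their exonic lengths were 4415 and 4403 bases. This length joins the exons of all annotated transcripts of a gene and can exceed that of the transcript present, so levels per length are approximate. *Fasn*, the fatty acid synthase itself, was at a moderate level in wt with 18.9 CPM per kb and reached 41.8 CPM per kb in Wnt9bKO.

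**Figure D1:**
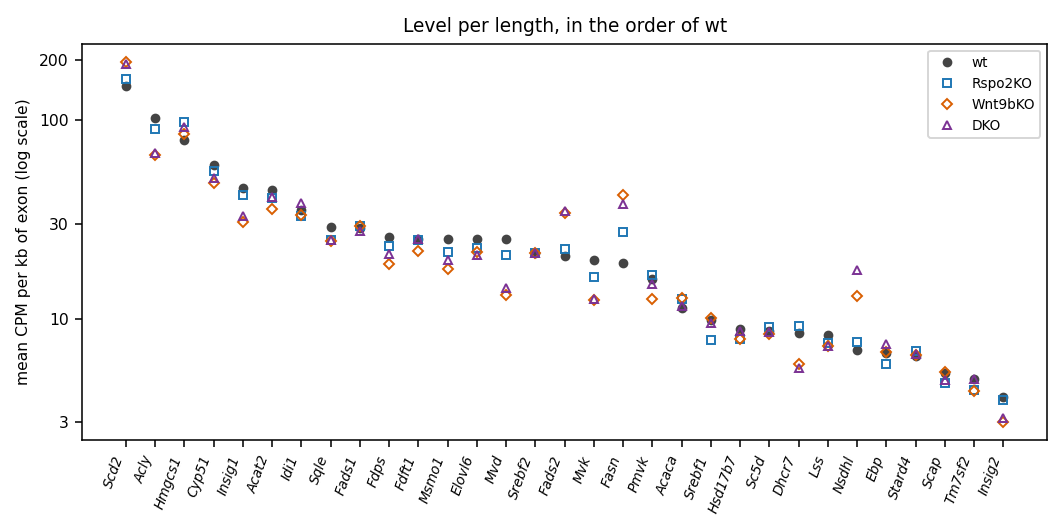
Mean level of each gene per kilobase of annotated exon (CPM per kb, log scale) in wt (filled circles), Rspo2KO (squares), Wnt9bKO (diamonds) and DKO (triangles), with genes ordered by wt. The wt levels run from 149 for *Scd2* to 4.03 for *Insig2*, and the symbols separate most for *Fasn*, *Fads2*, *Mvd* and *Nsdhl*.

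Against wt, 12 of these genes differed in Wnt9bKO and 9 in DKO, and the pathways did not move as blocks. In Wnt9bKO 4 genes were higher (*Nsdhl*, *Fasn*, *Scd2*, *Fads2*) and 8 were lower (*Mvd*, *Mvk*, *Fdps*, *Msmo1*, *Dhcr7*, *Insig1*, *Insig2*, *Acly*) at an adjusted p below 0.05 by edgeR's quasi-likelihood test, and 19 did not pass. Of all genes tested, 32.8% passed in this comparison, 16.8% as higher and 16.0% as lower, against 38.7% of the 31. In DKO 4 genes were higher (*Nsdhl*, *Fasn*, *Scd2*, *Fads2*) and 5 were lower (*Mvd*, *Mvk*, *Dhcr7*, *Insig1*, *Acly*), or 29.0% of the 31, where 27.5% of all genes tested passed, 14.3% as higher and 13.1% as lower. The share of the set that passed was thus near that of all genes in either comparison. The median log2 fold change of the 31 was -0.17 in Wnt9bKO and -0.06 in DKO, against 0.01 for all genes tested in each. Wnt9bKO and DKO were compared with the same 2 wt libraries, so their values are not independent. Without the libraries labelled Wnt9bKO 2 and DKO 3, 4 genes were higher and 5 lower in Wnt9bKO, and 4 higher and 5 lower in DKO. In that fit 5086 and 4393 of all 17135 genes tested passed. Leaving out the library wt 1 leaves 1 wt library. Fewer genes then passed in either comparison, in this set as among all genes tested.

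**Figure D2:**
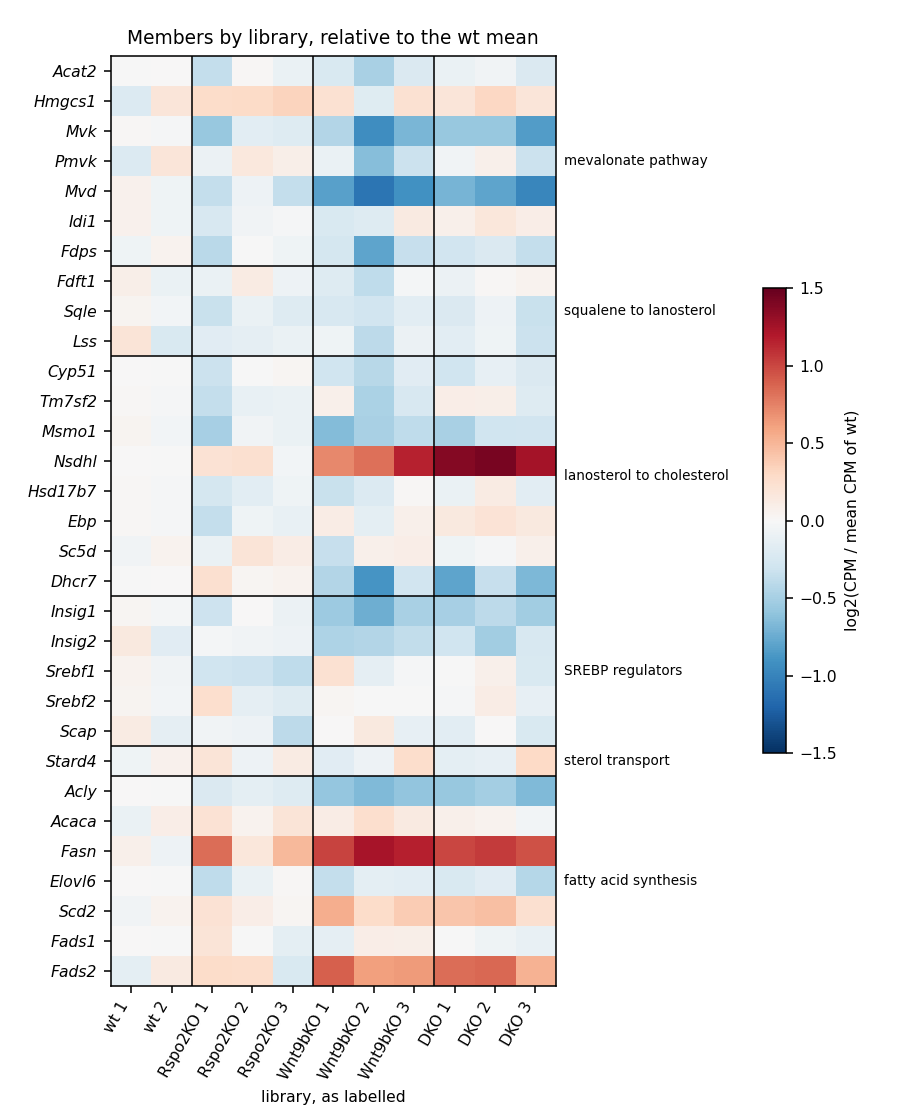
Level of each of the 31 genes in each of the 11 libraries as log2 of its CPM over the mean CPM of wt (color scale from -1.5 to 1.5), with genes grouped by role and libraries by label. *Mvd*, *Mvk*, *Insig1* and *Acly* are blue and *Nsdhl*, *Fasn* and *Fads2* are red in all Wnt9bKO and DKO libraries, while most other rows stay pale.

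In the mevalonate pathway, 3 of 7 genes fell in Wnt9bKO and 2 of 7 in DKO, and none rose. *Mvd* (ENSMUSG00000006517, chromosome 8, 122433601 to 122443422 on GRCm38) encodes the decarboxylase that makes isopentenyl diphosphate. It was at 48.6 and 44.5 CPM in wt, 36.4, 44.1 and 36.4 CPM in Rspo2KO, 26.5, 21.7 and 24.8 CPM in Wnt9bKO and 28.7, 26.9 and 23.6 CPM in DKO. Every Wnt9bKO and DKO library lay below every wt and Rspo2KO library. Its log2 fold change was -0.93 in Wnt9bKO (standard error 0.13, adjusted p = 0.000168) and -0.82 in DKO (standard error 0.13, adjusted p = 0.000524), and -0.86 and -0.75 without the libraries labelled Wnt9bKO 2 and DKO 3.

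*Mvk* (ENSMUSG00000041939, chromosome 5, 114444269 to 114460591), the kinase that phosphorylates mevalonate, was at 53.4 and 52.5 CPM in wt, 35.8, 47.4 and 46.4 CPM in Rspo2KO, 38.9, 27.7 and 32.8 CPM in Wnt9bKO and 35.6, 35.7 and 29.6 CPM in DKO. All mutant libraries of the 3 labels lay below wt. It had a log2 fold change of -0.68 in Wnt9bKO (standard error 0.15, adjusted p = 0.004) and -0.65 in DKO (standard error 0.15, adjusted p = 0.00609), and -0.56 and -0.57 without the library labelled Wnt9bKO 2 and the library labelled DKO 3. In Rspo2KO it was -0.29 and did not pass (adjusted p = 0.469).

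*Fdps* (chromosome 3, 89093588 to 89101959), which joins isoprenoid units into farnesyl diphosphate, was at 104 and 113 CPM in wt, 82.4, 108 and 104 CPM in Rspo2KO, 90.4, 62.6 and 85.4 CPM in Wnt9bKO and 88.9, 93.5 and 84.5 CPM in DKO. Wnt9bKO and DKO libraries lay below wt, and the library labelled Wnt9bKO 2 was the lowest. The log2 fold change of -0.45 in Wnt9bKO (standard error 0.15, adjusted p = 0.0298) did not pass without that library (-0.28, adjusted p = 0.105), without wt 1 (-0.51, adjusted p = 0.0733) or without wt 2 (-0.40, adjusted p = 0.170), nor without the libraries labelled Wnt9bKO 2 and DKO 3 (-0.31, adjusted p = 0.0922), nor with an offset for GC content and length (-0.35, adjusted p = 0.0601). The other 4 genes of this stage did not pass in any comparison. *Hmgcs1* had positive log2 fold changes (0.30 in Rspo2KO, 0.11 in Wnt9bKO and 0.23 in DKO), *Pmvk*, the kinase between *Mvk* and *Mvd*, had -0.34 in Wnt9bKO and -0.10 in DKO, and *Acat2* and *Idi1* lay between -0.31 and 0.11 in the comparisons with wt.

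None of the 3 genes that lead from farnesyl diphosphate to lanosterol passed against wt. *Fdft1*, the squalene synthase, *Sqle*, the squalene epoxidase, and *Lss*, the lanosterol synthase, had log2 fold changes from -0.23 to -0.17 in Wnt9bKO and from -0.21 to -0.00 in DKO. *Sqle* was at 155 CPM or more in wt and at 151 CPM or less in every mutant library (adjusted p = 0.118 in Wnt9bKO and 0.168 in DKO). For *Fdft1*, 18.3% of the exonic length is shared with *Ctsb* on the opposite strand, and the strand setting of the counting is not given in the sources used here.

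Between lanosterol and cholesterol, genes moved in opposite directions. In Wnt9bKO 1 of 8 rose (*Nsdhl*) and 2 fell (*Msmo1*, *Dhcr7*), and in DKO 1 rose (*Nsdhl*) and 1 fell (*Dhcr7*). *Nsdhl* (ENSMUSG00000031349, chromosome X, 72918557 to 72958514) encodes a dehydrogenase of the complex that removes the methyl groups from the sterol nucleus. It was at 19.7 and 19.7 CPM in wt, 22.9, 23.3 and 19.2 CPM in Rspo2KO, 32.5, 34.8 and 43.9 CPM in Wnt9bKO and 51.2, 52.8 and 46.7 CPM in DKO. By label, wt and Rspo2KO overlapped, every Wnt9bKO library lay above them and every DKO library above Wnt9bKO. Against wt the log2 fold change was 0.91 in Wnt9bKO (standard error 0.14, adjusted p = 0.000388) and 1.35 in DKO (standard error 0.14, adjusted p = 2.39e-05), and without the libraries labelled Wnt9bKO 2 and DKO 3 it was 0.95 and 1.39. In Rspo2KO it was 0.14 (standard error 0.14, adjusted p = 0.729). *Nsdhl* is X-linked, and *Xist* was high in wt and DKO and near 0 in Rspo2KO and Wnt9bKO. *Xist* and the genotype label both differed between wt and Rspo2KO, where *Nsdhl* overlapped, and between Wnt9bKO and DKO, where *Nsdhl* was higher in DKO. The part of sex in these values was not tested. In DKO against wt, *Xist* was high in every library of both labels. In Rspo2KO or Wnt9bKO against wt, and in DKO against either single mutant, sex and genotype label cannot be told apart. *Ebp*, a sterol isomerase and the other X-linked gene of the set, was at 11.98 to 17.8 CPM in all libraries and did not pass.

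*Dhcr7* (ENSMUSG00000058454, chromosome 7, 143823145 to 143848410), the reductase that completes cholesterol, was at 49.0 and 49.5 CPM in wt, 58.3, 50.3 and 51.3 CPM in Rspo2KO, 36.3, 26.7 and 40.2 CPM in Wnt9bKO and 28.4, 38.9 and 30.95 CPM in DKO. Wnt9bKO and DKO libraries lay below wt and Rspo2KO. The difference from wt was -0.52 on the log2 scale in Wnt9bKO (standard error 0.16, adjusted p = 0.0242) and -0.59 in DKO (standard error 0.16, adjusted p = 0.0151). The call in Wnt9bKO was lost without the library labelled Wnt9bKO 2 (-0.34, adjusted p = 0.0998), that in DKO without DKO 1 (-0.50, adjusted p = 0.0647), and either without wt 1 (adjusted p = 0.105 and 0.0812) or wt 2 (adjusted p = 0.109 and 0.0827). Without the libraries labelled Wnt9bKO 2 and DKO 3 it was -0.37 (adjusted p = 0.0784) in Wnt9bKO and -0.56 (adjusted p = 0.0164) in DKO.

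*Msmo1* (chromosome 8, 64718139 to 64733792), the sterol oxidase that acts before *Nsdhl*, was at 159 and 150 CPM in wt, 109, 148 and 144 CPM in Rspo2KO, 98.2, 111 and 119 CPM in Wnt9bKO and 111, 125 and 126 CPM in DKO. All mutant libraries lay below wt. It fell by 0.50 on the log2 scale in Wnt9bKO (standard error 0.13, adjusted p = 0.00966, but 0.0769 without wt 1), while -0.35 in DKO missed the threshold (adjusted p = 0.0579) and passed in 8 of 23 alternatives, among them the offset for GC content and length (-0.45, adjusted p = 0.0122). It was -0.51 in Wnt9bKO (adjusted p = 0.0228) and -0.39 in DKO (adjusted p = 0.0744) without the libraries labelled Wnt9bKO 2 and DKO 3. *Cyp51* had -0.29 in Wnt9bKO (adjusted p = 0.0800) and -0.21 in DKO (adjusted p = 0.209). *Tm7sf2*, *Hsd17b7*, *Ebp* and *Sc5d*, a further reductase, a ketoreductase, the isomerase and a desaturase, had log2 fold changes between -0.19 and 0.17 in every comparison with wt. For *Tm7sf2*, 12.1% of the exonic length is shared with *Vps51* on the same strand.

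Over the 18 enzymes of the 3 sterol stages together, the summed level was 1779 and 1820 CPM in wt, 1622 to 1860 CPM in Rspo2KO, 1401 to 1715 CPM in Wnt9bKO and 1658 to 1816 CPM in DKO. Wnt9bKO lay below wt, with the lowest sum in the library labelled Wnt9bKO 2, while DKO overlapped wt. The log2 fold change was negative for 15 of 18 in Wnt9bKO, 13 of 18 in DKO and 13 of 18 in Rspo2KO. Medians were -0.21, -0.11 and -0.13, against 0.01, 0.01 and 0.00 for all genes tested. The 3 comparisons share the 2 wt libraries, so these counts are not independent. Of the 18, 6 passed in Wnt9bKO (33.3%), 4 in DKO (22.2%) and 0 in Rspo2KO. Among all genes tested 32.8%, 27.5% and 0.0346% passed, so the shares in Wnt9bKO and DKO were near or below those of all genes.

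Among the 5 regulators, both INSIG genes fell in Wnt9bKO and *Insig1* also in DKO, while the SREBP genes and *Scap* did not pass. *Insig1* (ENSMUSG00000045294, chromosome 5, 28071363 to 28078662), which is itself a target of SREBP and retains SCAP in the endoplasmic reticulum, was at 144 and 139 CPM in wt, 114, 142 and 133 CPM in Rspo2KO, 97.2, 84.9 and 101 CPM in Wnt9bKO and 100.4, 107 and 98.1 CPM in DKO. Every Wnt9bKO and DKO library lay below the others. Against wt it had -0.58 in Wnt9bKO (standard error 0.11, adjusted p = 0.00145) and -0.47 in DKO (standard error 0.11, adjusted p = 0.00697), and -0.52 and -0.45 without the libraries labelled Wnt9bKO 2 and DKO 3. In DKO it missed the threshold without wt 1 (-0.45, adjusted p = 0.0542).

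*Insig2* (chromosome 1, 121304353 to 121332589), its paralog, was at 15.5 and 12.4 CPM in wt, 13.7, 13.5 and 13.3 CPM in Rspo2KO, 10.1, 10.3 and 10.9 CPM in Wnt9bKO and 11.4, 9.72 and 11.8 CPM in DKO. Its log2 fold change of -0.42 in Wnt9bKO (standard error 0.15, adjusted p = 0.0400) passed in 11 of 23 alternatives only, and it was -0.26 (adjusted p = 0.329) without wt 1, which is the higher of the wt libraries. It also missed the threshold without any 1 of the libraries Wnt9bKO 1 to 3, Rspo2KO 2, Rspo2KO 3 and DKO 1 (adjusted p = 0.0521 to 0.0906), and without the libraries labelled Wnt9bKO 2 and DKO 3 (-0.41, adjusted p = 0.0761). In DKO it was -0.34 (adjusted p = 0.0959).

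*Srebf2*, which encodes the SREBP that mainly drives cholesterol synthesis, was at 158 and 150 CPM in wt, 184, 140 and 134 CPM in Rspo2KO, 157, 153 and 153 CPM in Wnt9bKO and 152, 167 and 142 CPM in DKO. *Srebf1*, whose product mainly drives fatty acid synthesis, was at 57.3 and 53.2 CPM in wt, 44.9, 44.7 and 42.3 CPM in Rspo2KO, 64.9, 50.4 and 54.6 CPM in Wnt9bKO and 55.1, 58.4 and 47.2 CPM in DKO. *Scap*, the escort protein, was at 43.4 and 36.1 CPM in wt, 38.3, 37.6 and 30.3 CPM in Rspo2KO, 39.9, 44.1 and 36.5 CPM in Wnt9bKO and 35.8, 39.98 and 33.8 CPM in DKO. The Wnt9bKO libraries overlapped wt for each of these genes, as did DKO, and the log2 fold changes of Wnt9bKO and DKO against wt lay between -0.12 and 0.04, with signs that turned under some alternatives. *Srebf1* was below wt in all 3 Rspo2KO libraries (-0.33, standard error 0.13), with an unadjusted p of 0.0194 and an adjusted p of 0.314. Of the exonic length of *Scap*, 13.2% is shared with a gene on the opposite strand. *Stard4*, a sterol carrier that is a known SREBP target, was at 32.1 to 44.6 CPM in all libraries and did not pass.

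In fatty acid synthesis 3 of 7 genes rose and 1 fell, in Wnt9bKO and in DKO. *Fasn* (ENSMUSG00000025153, chromosome 11, 120805846 to 120824547), the enzyme that assembles palmitate, had the largest log2 fold change of the 31 genes in Wnt9bKO. It was at 218 and 196 CPM in wt, 371, 233 and 289 CPM in Rspo2KO, 419, 489 and 464 CPM in Wnt9bKO and 415, 429 and 401 CPM in DKO. All mutant libraries were above wt, and the Rspo2KO libraries lay between wt and the other mutants. The log2 fold change was 1.14 in Wnt9bKO (standard error 0.16, adjusted p = 0.000179) and 1.002 in DKO (standard error 0.16, adjusted p = 0.000524), and 1.09 and 1.02 without the library labelled Wnt9bKO 2 and the library labelled DKO 3.

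*Acly* (ENSMUSG00000020917, chromosome 11, 100476353 to 100528000), the ATP citrate lyase that supplies acetyl-CoA to *Fasn* and to the mevalonate pathway alike, went the other way. It was at 543 and 536 CPM in wt, 465, 487 and 473 CPM in Rspo2KO, 361, 342 and 357 CPM in Wnt9bKO and 364, 380 and 340.1 CPM in DKO. The libraries fell into separate ranges, with wt highest, Rspo2KO below it, and Wnt9bKO and DKO together below Rspo2KO. Against wt it changed by -0.61 in Wnt9bKO (standard error 0.10, adjusted p = 0.000455) and -0.58 in DKO (standard error 0.10, adjusted p = 0.000853), and -0.59 and -0.54 without the libraries labelled Wnt9bKO 2 and DKO 3. In Rspo2KO it was -0.19 (adjusted p = 0.485).

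The desaturases of this group rose or stayed near wt. *Fads2* (chromosome 19, 10062765 to 10101746), the desaturase that opens the route to long polyunsaturated fatty acids, was at 61.3 and 74.8 CPM in wt, 82.7, 81.8 and 58.0 CPM in Rspo2KO, 127, 105 and 106 CPM in Wnt9bKO and 121, 124 and 97.5 CPM in DKO. Wnt9bKO and DKO lay above wt and Rspo2KO, which overlapped each other. It rose by 0.72 in Wnt9bKO (standard error 0.16, adjusted p = 0.00418) and 0.74 in DKO (standard error 0.16, adjusted p = 0.00446) on the log2 scale. Without wt 1, the lower wt library, these were 0.58 (adjusted p = 0.0708) and 0.60 (adjusted p = 0.0764), and without the libraries labelled Wnt9bKO 2 and DKO 3 they were 0.77 and 0.84. *Fads1*, a later desaturase of that route, lies beside *Fads2* in the genome (chromosome 19, 10182888 to 10196877) and did not follow it, with 125 to 159 CPM over all libraries and log2 fold changes of 0.02 in Wnt9bKO and -0.06 in DKO.

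*Scd2* (chromosome 19, 44293674 to 44306864) was at 782 and 842 CPM in wt, 940, 867 and 831 CPM in Rspo2KO, 1184, 980 and 1056 CPM in Wnt9bKO and 1081, 1115 and 962 CPM in DKO. All Wnt9bKO and DKO libraries were above wt, by a smaller margin than for *Fasn*. Its log2 fold change was 0.40 in Wnt9bKO (standard error 0.12, adjusted p = 0.0232) and 0.37 in DKO (standard error 0.12, adjusted p = 0.0372), and 0.46 and 0.43 without the libraries labelled Wnt9bKO 2 and DKO 3. The call in Wnt9bKO was lost without wt 1, wt 2 or Wnt9bKO 1 (adjusted p = 0.156, 0.0672 and 0.0596), and that in DKO without wt 1, wt 2, DKO 1 or DKO 2 (adjusted p = 0.219, 0.0944, 0.0996 and 0.115). *Acaca*, the carboxylase that commits acetyl-CoA to fatty acids, had 0.17 in Wnt9bKO and 0.03 in DKO, and the elongase *Elovl6* -0.22 and -0.27, and neither passed. The summed level of the 7 genes was 2086 and 2153 CPM in wt, 2158 to 2366 CPM in Rspo2KO, 2438 to 2550 CPM in Wnt9bKO and 2235 to 2524 CPM in DKO. Every Wnt9bKO and DKO library was thus above wt. Rspo2KO 2 and Rspo2KO 3, at 2158 and 2160 CPM, were barely above the higher wt library.

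**Figure D3:**
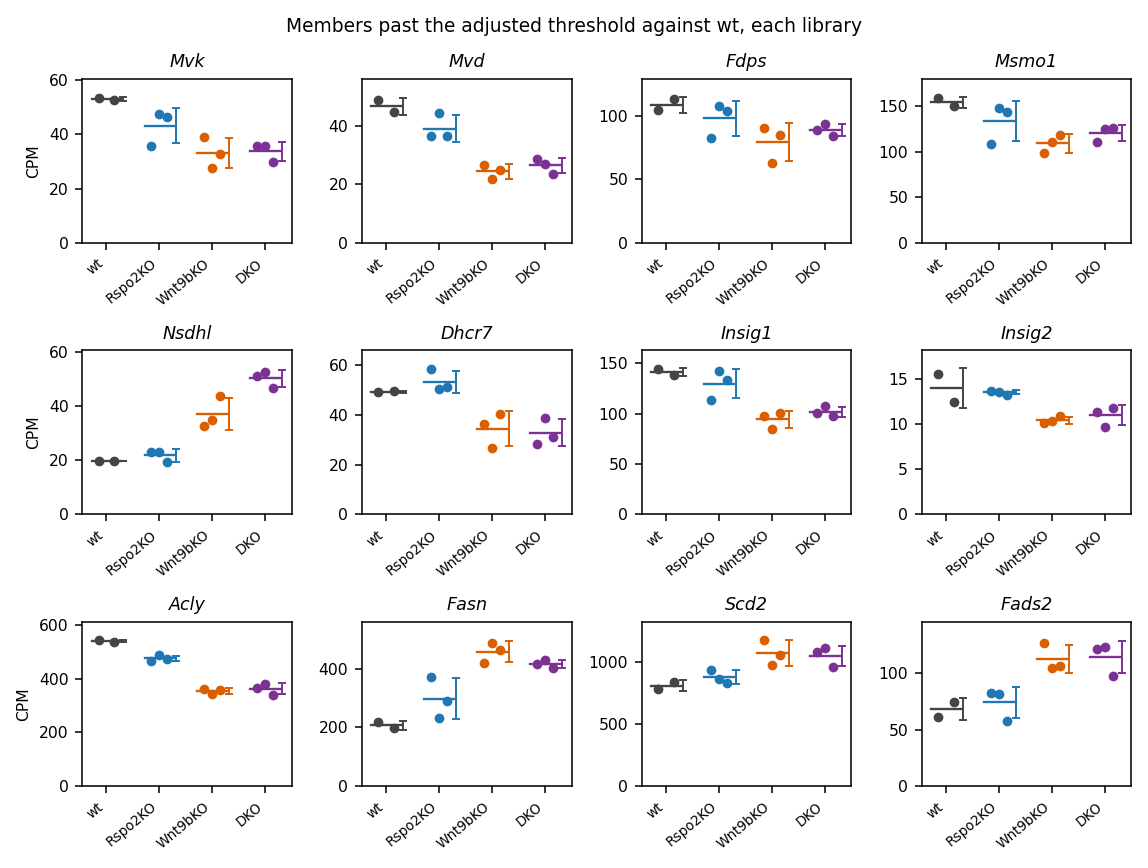
CPM in each library (points) of the 12 genes that passed the adjusted threshold against wt in Wnt9bKO or DKO, by genotype label, with the mean (horizontal line) and the SD (bar at the right; n = 2 for wt and 3 for each mutant). All Wnt9bKO and DKO libraries lie below wt for *Mvk*, *Mvd*, *Fdps*, *Msmo1*, *Dhcr7*, *Insig1*, *Insig2* and *Acly*, and above wt for *Nsdhl*, *Fasn*, *Scd2* and *Fads2*.

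In Rspo2KO none of the 31 genes passed the adjusted threshold by edgeR's quasi-likelihood test, where 0.0346% of all genes tested did, 0.0289% as higher and 0.00577% as lower. At an unadjusted p below 0.05 there were 2, *Fasn* and *Srebf1*, and DESeq2 called 0. *Fasn* was above wt in all 3 libraries (log2 fold change 0.52, standard error 0.16, adjusted p = 0.229). Its largest value, 371 CPM, was in Rspo2KO 1, without which the log2 fold change was 0.33, and it passed in 1 of 23 alternatives, when genes with low counts were kept (adjusted p = 0.0145). With the libraries labelled Wnt9bKO 2 and DKO 3 left out, 0 of the 31 passed in Rspo2KO and 5 had an unadjusted p below 0.05. The median log2 fold change of the 31 genes was -0.10, against 0.00 for all genes tested, and values ran from -0.33 (*Srebf1*) to 0.52 (*Fasn*).

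**Figure D4:**
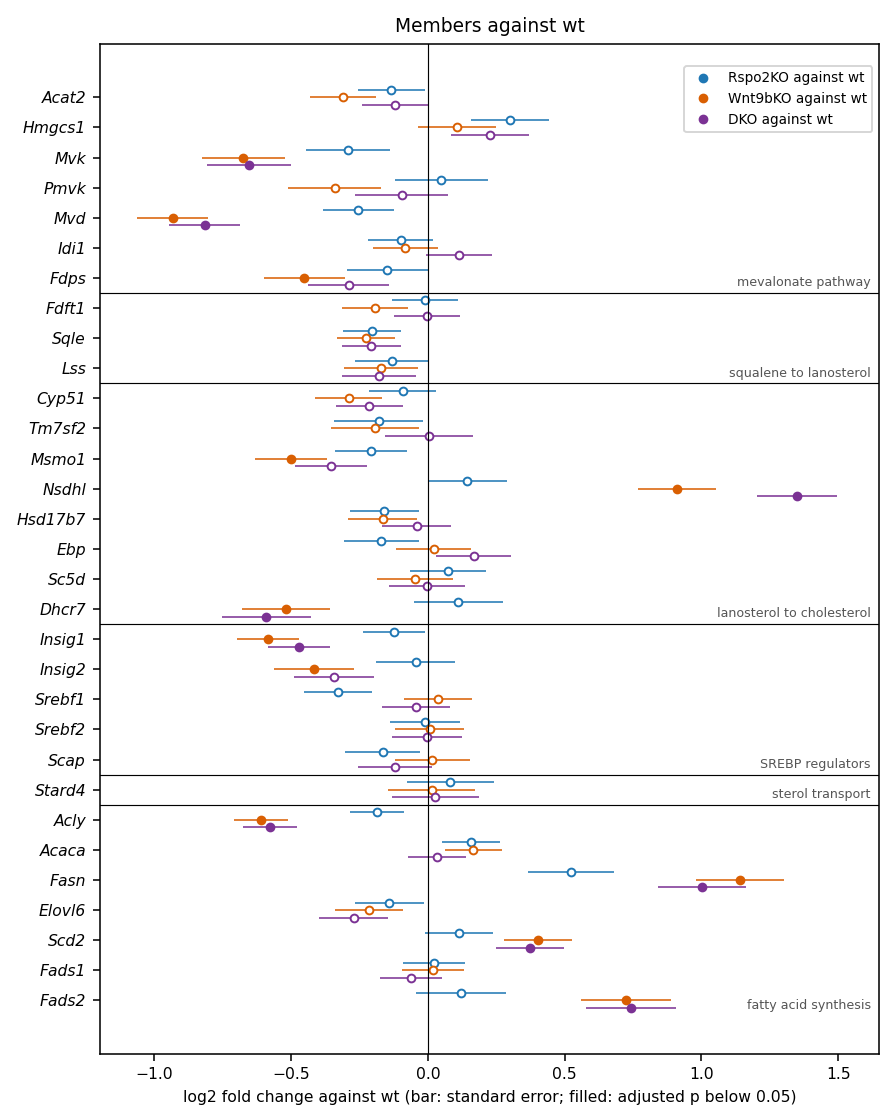
Log2 fold change against wt of each of the 31 genes in Rspo2KO, Wnt9bKO and DKO with its standard error, grouped by role. Filled points passed an adjusted p of 0.05, which 12 genes did in Wnt9bKO, 9 in DKO and 0 in Rspo2KO, and the points of Wnt9bKO and DKO, which share the wt libraries, lie within 0.25 of each other for all but *Nsdhl* (0.91 and 1.35).

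Adding the *Rspo2* mutation to the *Wnt9b* mutation was examined by comparing DKO with Wnt9bKO. None of the 31 genes passed, and 0.121% of all genes tested did, 0.0635% as higher and 0.0577% as lower. At an unadjusted p below 0.05 there was 1, *Nsdhl*, which was higher in DKO (log2 fold change 0.44, standard error 0.12, adjusted p = 0.327), and DESeq2 called 0. The log2 fold change was positive for 16 of the 18 sterol enzymes, with a median of 0.14 against -0.0024 for all genes tested, and none but *Nsdhl* exceeded 0.25. In the fatty acid group it lay between -0.14 and 0.03. The libraries labelled Wnt9bKO 2 and DKO 3, whose *Rspo2* counts went against their labels, stand on opposite sides of this comparison. Without them 0 of the 31 passed, and *Nsdhl* again had the 1 unadjusted p below 0.05 (0.44, standard error 0.15, adjusted p = 0.590).

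Adding the *Wnt9b* mutation to the *Rspo2* mutation, that is, DKO against Rspo2KO, gave 3 higher and 4 lower genes, or 22.6% of the 31, where 18.2% of all genes tested passed, 9.15% as higher and 9.07% as lower. *Nsdhl* (1.21, standard error 0.12, adjusted p = 1.75e-05), *Fads2* (0.62, adjusted p = 0.00823) and *Fasn* (0.48, adjusted p = 0.0270) were higher in DKO. *Dhcr7* (-0.70, adjusted p = 0.00441), *Mvd* (-0.56, adjusted p = 0.00470), *Acly* (-0.39, adjusted p = 0.00750) and *Insig1* (-0.35, adjusted p = 0.0284) were lower. This comparison uses no wt library, but it shares the DKO libraries with the comparison of DKO with wt. Without the libraries labelled Wnt9bKO 2 and DKO 3, 4 were higher and 3 lower, with *Srebf1* added (0.37, adjusted p = 0.0342) and *Insig1* lost. In that fit 2861 of all 17135 genes tested passed.

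The interaction asks whether the change in DKO departs from the sum of the changes in Wnt9bKO and Rspo2KO on the log2 scale. Labels with high *Xist* (wt and DKO) enter it with a plus sign, and those with low *Xist* (Rspo2KO and Wnt9bKO) with a minus sign. A difference by sex and an interaction therefore cannot be told apart here. None of the 31 genes passed, and 0.0635% of all genes tested did, 0.0289% as higher and 0.0346% as lower. *Fasn* had the only unadjusted p below 0.05, with an interaction of -0.66 (standard error 0.21, adjusted p = 0.427), beside log2 fold changes of 0.52 in Rspo2KO, 1.14 in Wnt9bKO and 1.002 in DKO. It was the 1 gene of the set that passed when genes with low counts were kept, and DESeq2 called 0. Leaving out the libraries labelled Wnt9bKO 2 and DKO 3, 0 of the 31 passed, and *Fasn* had -0.58 (adjusted p = 0.569). For *Nsdhl* the interaction was 0.29 (standard error 0.19, adjusted p = 0.632). Under the rule of an unadjusted p below 0.05 and more than 1.5-fold, 3 genes of the set were higher and 3 lower in Wnt9bKO (24.8% of all genes tested passed), 3 higher and 3 lower in DKO (20.4%), 2 higher and 1 lower in DKO against Rspo2KO (12.2%), 1 in the interaction (5.85%), and 0 in Rspo2KO (4.68%) and in DKO against Wnt9bKO (2.93%).

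Further genes of lipid metabolism, in 6 lists, were counted in the same fit. Of 74 genes listed 71 were tested, and 7 were higher and 18 lower in Wnt9bKO (35.2%), 5 higher and 13 lower in DKO (25.4%) and 0 in Rspo2KO, where 6 had an unadjusted p below 0.05. The shares in Wnt9bKO and DKO again lie near those of all genes tested. When the libraries labelled Wnt9bKO 2 and DKO 3 were left out, 70 were tested, and 6 were higher and 13 lower in Wnt9bKO, 7 higher and 9 lower in DKO and 0 in Rspo2KO, where 7 had an unadjusted p below 0.05. Of the calls named here, those of *Npc2* in Wnt9bKO (-0.32, adjusted p = 0.0606) and of *Gramd1a* (-0.28, adjusted p = 0.112), *Apoe* (-0.47, adjusted p = 0.0542) and *Oxsm* (-0.70, adjusted p = 0.0554) in DKO were then lost. Among other genes of sterol synthesis, *Aacs*, which makes acetoacetyl-CoA from ketone bodies, fell by 1.02 in Wnt9bKO and by 0.95 in DKO on the log2 scale (adjusted p = 2.44e-05 and 4.66e-05). Its lowest wt library had 64.0 CPM, and none of the Wnt9bKO and DKO libraries exceeded 36.8 CPM. *Hsd17b12*, counted in this list but a ketoreductase of fatty acid elongation, rose by 1.12 and 1.14 (adjusted p = 0.000218 and 0.000214). *Acat1*, the mitochondrial thiolase, was -0.49 in Wnt9bKO (adjusted p = 0.00851), and -0.26 in DKO (adjusted p = 0.144). Among the factors that process SREBP, 1 of 11 passed in Wnt9bKO, *Rnf139* (-0.34, adjusted p = 0.0370), and 0 in DKO, where 1 had an unadjusted p below 0.05.

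For uptake and trafficking of sterols, 1 gene rose and 4 fell of 14 in Wnt9bKO, and 3 fell in DKO. *Stard3*, a late endosomal sterol carrier, had -0.70 and -0.67 (adjusted p = 0.00104 and 0.00172), and *Lrp8*, a lipoprotein and Reelin receptor, -0.52 and -0.54 (adjusted p = 0.00996 and 0.0103). *Npc2*, which takes cholesterol out of lysosomes, fell in Wnt9bKO (-0.37, adjusted p = 0.0187), and *Gramd1a*, a carrier from the plasma membrane to the endoplasmic reticulum, in DKO (-0.35, adjusted p = 0.0375). In the group of efflux, esterification and LXR genes, *Abca1*, the cholesterol exporter, rose by 0.52 in Wnt9bKO and 0.56 in DKO (adjusted p = 0.0107 and 0.00818), and *Apoe*, which carries exported lipid, had -0.66 and -0.52 (adjusted p = 0.00769 and 0.0306). *Cyp46a1*, a cholesterol hydroxylase of neurons, rose by 1.67 in DKO (adjusted p = 0.0164) from 0.302 and 0.893 CPM in wt to 1.34 to 2.06 CPM. Without the libraries labelled Wnt9bKO 2 and DKO 3 its log2 fold change was 1.83 in DKO (adjusted p = 0.0113). In that fit it was also positive in Rspo2KO (1.06, adjusted p = 0.363) and Wnt9bKO (0.79, adjusted p = 0.255), where it did not pass. The neuronal markers *Stmn2* (0.62, adjusted p = 0.0313) and *Neurod1* (0.77, adjusted p = 0.0430) were also higher in DKO. The sum of the 5 neuronal markers in DKO (461.8 to 504.8 CPM) overlapped wt (439.1 to 485.3 CPM), and it was lower in Wnt9bKO (263.2 to 383.9 CPM). The part of neurons in the *Cyp46a1* values was not tested.

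Of 17 further genes of fatty acid synthesis tested, 1 rose and 5 fell in Wnt9bKO, and 1 rose and 3 fell in DKO. *Slc25a1*, which exports mitochondrial citrate, the substrate of *Acly*, had 42.1 and 41.0 CPM in wt against 27.2 to 31.6 CPM in Wnt9bKO and DKO (log2 fold change -0.51 and -0.49, adjusted p = 0.00271 and 0.00421). *Mlxip*, a glucose-responsive transcription factor, rose by 1.18 and 1.08 (adjusted p = 0.00109 and 0.00250). *Mcat* had -0.62 and -0.47 (adjusted p = 0.00493 and 0.0269), and *Oxsm* -0.73 in DKO (adjusted p = 0.0245), and these encode enzymes of the separate mitochondrial route. In glycerolipid synthesis 2 of 12 rose and 3 fell in Wnt9bKO, and 1 rose and 4 fell in DKO. *Pcyt2* and *Pcyt1a*, which activate ethanolamine and choline for phospholipids, had -0.93 and -0.57 in Wnt9bKO (adjusted p = 0.000854 and 0.000990) and -0.87 and -0.59 in DKO (adjusted p = 0.00169 and 0.00106). *Chka*, the choline kinase upstream of *Pcyt1a*, rose by 0.54 in Wnt9bKO (adjusted p = 0.00322), and *Gpam*, which starts glycerolipid synthesis, had -0.42 in DKO (adjusted p = 0.0166).

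Because SREBP factors act at the promoters of these genes together with NF-Y and SP1, the promoter windows of RefSeq (GRCm38.p6, 250 bases before to 50 after the start, both strands searched) were searched for a sterol regulatory element core (TCACNCCAC), the CCAAT box bound by NF-Y (CCAAT) and a GC box bound by SP1 (GGGCGG). Windows matched 25 of the 31 genes. The CCAAT box was in 20 of 25 (80.0%), against 41.1% of 27025 genes, and the GC box in 21 of 25 (84.0%), against 38.2%. The 27025 are all genes with a window, expressed in these explants or not, whereas all 31 genes of the set were above the median of the genes tested. The shares are thus not compared at like expression, and the part of expression in them was not tested. The sterol element in these exact letters was in 1 of 25 (4.0%), *Hmgcs1*, against 1.44% of all genes. Stretches before the start are printed for 2 genes that fell, in the pathway and in its feedback (*Mvd*, *Insig1*), for the 2 with the largest rises (*Nsdhl*, *Fasn*) and for *Hmgcs1*, which has the sterol element and did not pass in any comparison, a choice made after their values were seen. Capitals mark motif matches, with a match on the opposite strand read as ATTGG for the CCAAT box and CCGCCC for the GC box. Each sequence runs up to the base before the RefSeq start, except *Insig1*, where the 49 bases that GENCODE annotates as transcribed were left out.
Mvd (chr8:122443423-122443672, minus strand): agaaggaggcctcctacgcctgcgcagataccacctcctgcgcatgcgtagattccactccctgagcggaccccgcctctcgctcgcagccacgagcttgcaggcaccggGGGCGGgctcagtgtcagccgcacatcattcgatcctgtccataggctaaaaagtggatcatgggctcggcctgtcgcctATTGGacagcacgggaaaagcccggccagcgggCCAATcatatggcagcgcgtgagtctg
Insig1 (chr5:28071162-28071362, plus strand): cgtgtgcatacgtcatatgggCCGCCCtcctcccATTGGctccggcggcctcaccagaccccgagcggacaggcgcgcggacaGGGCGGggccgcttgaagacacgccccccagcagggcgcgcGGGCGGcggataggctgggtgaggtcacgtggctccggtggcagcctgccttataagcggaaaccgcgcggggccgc
Nsdhl (chrX:72918271-72918520, plus strand): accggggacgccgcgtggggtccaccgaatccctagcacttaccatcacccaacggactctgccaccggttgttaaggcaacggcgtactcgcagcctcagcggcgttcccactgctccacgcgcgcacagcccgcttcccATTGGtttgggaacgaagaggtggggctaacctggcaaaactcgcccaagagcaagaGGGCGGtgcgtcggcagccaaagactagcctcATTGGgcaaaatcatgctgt
Fasn (chr11:120824548-120824797, minus strand): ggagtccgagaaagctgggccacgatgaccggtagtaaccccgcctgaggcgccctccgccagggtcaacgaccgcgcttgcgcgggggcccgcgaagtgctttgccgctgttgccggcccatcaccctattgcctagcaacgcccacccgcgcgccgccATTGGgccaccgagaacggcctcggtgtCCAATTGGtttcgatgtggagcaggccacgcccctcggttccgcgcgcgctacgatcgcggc
Hmgcs1 (chr13:119690101-119690350, plus strand): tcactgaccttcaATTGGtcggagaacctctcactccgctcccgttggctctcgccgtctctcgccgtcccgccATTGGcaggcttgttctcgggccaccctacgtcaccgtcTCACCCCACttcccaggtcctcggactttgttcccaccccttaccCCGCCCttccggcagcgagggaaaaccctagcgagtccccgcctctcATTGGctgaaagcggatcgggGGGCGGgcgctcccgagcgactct

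The *Fasn* window held 3 CCAAT boxes, 2 of them overlapping on opposite strands, 62 and 59 bases before the start, and no GC box in this stretch. *Mvd* held 2 CCAAT boxes, 27 and 60 bases before the start, and *Nsdhl* 2, at 20 and 109 bases. *Insig1* held 1 CCAAT box and 3 GC boxes, and *Hmgcs1* 3 CCAAT boxes, 2 GC boxes and the sterol element 137 bases before the start. CCAAT boxes thus stood before genes that fell, genes that rose and a gene that did not pass alike. A match is a description of letters and no evidence of binding.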

How the data were processed

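RNA from facial process explants of 11 libraries was measured by RNA-seq. The authors deposited counts, whole reads per Ensembl gene, not normalized. The study's pipeline was Cutadapt trimming of single-end reads, STAR alignment (GRCm38) and HTSeq-Count per gene. Here, R 4.3.3 with edgeR 4.0.16 was used. Genes were filtered with filterByExpr, scaled by TMM (factors 0.915 to 1.10) and fitted with 1 mean per genotype label over all 11 libraries. Quasi-likelihood tests were two-sided, with p-values adjusted by the Benjamini-Hochberg method over 17317 genes and a threshold of 0.05. The study's methods name DESeq2 with p below 0.05 and 1.5-fold, and DESeq2 1.42.0 and that rule were alternatives. The standard error is the absolute log2 fold change over the square root of F. Of 38561 identifiers, 36639 matched GENCODE M21, which gave positions and exonic lengths. The study describes separate embryos for most experiments, but whether each RNA-seq library is 1 embryo, and whether same-numbered libraries are littermates, is not given in the sources used here, so p-values measure only the spread between these libraries. Within-group pairs differed beyond sampling noise (chi-square per degree of freedom 5.07 to 33.3).

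The members and lists were chosen with earlier results of these data known. Values per library were given for the 5 regulators and, in each role group, up to 4 genes with the smallest p against wt among those passing the threshold, and genes of the other lists were named if they passed, up to 3 per list and comparison. *Hsd17b8* had no unique match, and *Ch25h* and *Elovl3* were not tested. RefSeq promoter windows were not used for *Fdft1*, *Scd2*, *Sqle*, *Stard4*, *Fdps* and *Fads1*. Alternatives were RLE and upper-quartile factors, no filter, at least 10 counts in every library, the groups compared only, the replicate number as a block, loess offsets on GC content and length (span 0.3), glmTreat at 1.5-fold, autosomal protein-coding genes only, and leaving out libraries. The fit was tested on simulated data. Figures were drawn with matplotlib 3.10.9.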

Additional observations from a re-analysis of the deposited data

How the results depend on the processing

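The counts of the 31 genes past the threshold moved by over 1.5 times under a few alternatives. Testing against a 1.5-fold change (glmTreat) left 1 higher and 1 lower in Wnt9bKO, 1 and 0 in DKO, and 1 and 0 in DKO against Rspo2KO. Of all 17317 genes tested, it left 834, 555 and 308 in these comparisons. The rule of an unadjusted p and 1.5-fold gave 3 lower in Wnt9bKO, 3 lower in DKO, 1 lower in DKO against Rspo2KO and 1 lower in the interaction. Without a filter on low counts, 1 was higher in Rspo2KO and 1 lower in the interaction, where 572 and 347 of all 28095 genes tested passed. Lower genes in DKO were 8 when only the groups compared were fitted and 8 with the offset for GC content and length, with or without the replicate block, and the offset gave 5 higher in DKO against Rspo2KO. Over all genes, 5719 of 16511 passed in DKO with only the groups compared. With the offset 4716 of 17020 passed in DKO (5097 with the block) and 3385 in DKO against Rspo2KO (3643 with the block). Without the libraries labelled Wnt9bKO 2 and DKO 3, 5 were lower in Wnt9bKO, where 5086 of all 17135 genes tested passed in either direction. Over all genes tested, leaving out 1 mutant library gave 4739 to 6094 calls in Wnt9bKO and 3290 to 5422 in DKO. In DKO against Rspo2KO it gave 1683 to 3991. The cause of these moves was not tested. Leaving out each library in turn gave 2 to 4 higher and 4 to 10 lower in Wnt9bKO, 2 to 4 and 3 to 6 in DKO, 2 to 4 and 3 to 5 in DKO against Rspo2KO, and 0 in the other comparisons.

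Same-numbered libraries had correlated deviations of -0.11 to 0.24 over 15 pairs, 3 of them over 0.1. The 9 pairs of mutant libraries were all positive (0.041 to 0.24), against -0.19 to 0.063 for 18 differently numbered mutant pairs, and with 2 wt libraries the deviations in wt mirror each other. Not every pair passed 0.1 and no label ties the numbers, so they were not taken as pairs, and the mutant pairs remain a hint from the data. With the replicate block the counts were 4 higher and 9 lower in Wnt9bKO, 4 and 6 in DKO, 3 and 4 in DKO against Rspo2KO, and 0 elsewhere. Of all 17317 genes tested, 6056 then passed in Wnt9bKO, 5134 in DKO and 3475 in DKO against Rspo2KO.

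Signs turned only for log2 fold changes near 0 that did not pass, among the genes with values per library. *Srebf1* in DKO was 0.0011 with the block, 0.048 with the offset, 0.063 with both and 0.035 without the libraries labelled Wnt9bKO 2 and DKO 3. *Srebf2* in Wnt9bKO was -0.0035 by DESeq2. *Srebf2* in Rspo2KO was 0.0054 with at least 10 counts in every library, 0.0025 with only the groups compared, 0.032 with the block, 0.029 with the offset and 0.0465 with both. *Srebf2* in DKO was 0.0201 with upper-quartile factors, 0.0058 without a filter, 0.0098 with at least 10 counts, 0.0466 with the block, 0.0485 with the offset, 0.0704 with both, 0.0128 with autosomal protein-coding genes and 0.0467 without the libraries labelled Wnt9bKO 2 and DKO 3. *Scap* in Wnt9bKO was -0.0585 without those libraries. Over single libraries left out, ranges that crossed 0 were -0.21 to 0.13 (*Insig2*, Rspo2KO), -0.0052 to 0.27 (*Fads2*, Rspo2KO), -0.0703 to 0.14 (*Srebf1*, Wnt9bKO), -0.11 to 0.034 (*Srebf1*, DKO), -0.037 to 0.0399 (*Srebf2*, Wnt9bKO), -0.16 to 0.0733 (*Srebf2*, Rspo2KO), -0.0653 to 0.0458 (*Srebf2*, DKO), -0.12 to 0.15 (*Scap*, Wnt9bKO) and -0.25 to 0.0075 (*Scap*, DKO).

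Some calls were lost without wt 1 or wt 2, as given beside *Fdps*, *Msmo1*, *Dhcr7*, *Insig1*, *Insig2*, *Fads2* and *Scd2*. Not all of them were near the threshold in the main quasi-likelihood fit, where *Fads2* in Wnt9bKO had an adjusted p of 0.00418. Such a fit has 1 wt library left, and fewer genes passed among all genes tested as well. A lost call thus need not mean that 1 wt library carried it, and *Dhcr7* had 49.0 and 49.5 CPM in wt. *Mvd* and *Fasn* in Wnt9bKO passed in 23 of 23 alternatives.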
